A study of Mus musculus with 123 samples.

Results

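Peaks of open chromatin in the mouse cerebral cortex are unevenly spread along the chromosomes, and the peaks described here are the most crowded ones. A peak was included when it lay on chromosomes 1 to 19, was narrower than 1500 bp and had at least 8 other peak starts within 20 kb of its own start. Of the 130727 deposited peaks, 7860 (6.01%) met this rule, which uses positions and widths only and no measured signal. They are called dense peaks below. Another 50 autosomal peaks had 8 or more such neighbours but were left out for their width.

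The accessibility of these peaks was measured by ATAC-seq, in which a transposase cuts and tags DNA that is not packed on nucleosomes, in cortex of male C57BL/6J mice aged 11 to 12 weeks kept in 12 h light and 12 h dark. In the deprived mice sleep was prevented by gentle handling over 6 h, beginning when the lights came on (zeitgeber time 0, ZT0), and control mice slept freely. The 59 libraries used, 1 per animal, comprised controls at ZT0 (8), ZT3 (3), ZT6 (5), ZT12 (5) and ZT18 (4), and deprived mice at T27, T30, T36, T42, T48, T54, T60, T72, T78, T192 and T198 (3 each) and T66 (1), where T counts hours from light onset of the baseline day. T27 and T30 were taken after 3 and 6 h of deprivation, T36 and T42 later on the same day (the sample notes place T36 within deprivation, against the design and protocol, which end it at T30 and are followed here), T48 to T66 on the next day, T72 and T78 a day after that, and T192 and T198 after 7 days of recovery. Each deprived group was compared with the controls of its own time of day, and RNA-seq of the same animals was also used.

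In open chromatin the sites that bind regulatory proteins are exposed, and they include promoters at gene starts and enhancers inside and between genes. Many such sites close together often surround genes that define a cell type, where several enhancers act on the same gene. In the cortex, staying awake induces activity-dependent genes, while circadian clock proteins drive daily rhythms by binding short motifs such as the E-box and the D-box. Tissue as a whole holds neurons and glia, so that fewer cells of a type and less open chromatin per cell cannot be told apart in these libraries.

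Promoters of clock genes lie inside several of the dense clusters, and 4 of these genes are shown here because the results return to them: Dbp, which encodes an activator of D-box genes, Per1 and Cry2, which encode repressors within the clock, and Nr1d1, which encodes the repressor Rev-erb alpha. Each run covers 250 bases before to 50 after a gene start from the RefSeq promoter table (GRCm38.p6), written 5′ to 3′ on the gene's strand. Capitals mark matches to the E-box CACGTG or the D-box TTATGNAA, searched on both strands. Each of these windows lies wholly within 1 dense peak.
Dbp, chr7:45704997-45705296, plus strand: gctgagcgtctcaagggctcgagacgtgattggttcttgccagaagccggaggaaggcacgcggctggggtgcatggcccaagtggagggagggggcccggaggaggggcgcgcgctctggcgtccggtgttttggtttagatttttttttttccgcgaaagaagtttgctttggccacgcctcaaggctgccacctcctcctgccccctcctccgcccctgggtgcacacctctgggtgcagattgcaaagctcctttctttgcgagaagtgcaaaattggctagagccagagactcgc
Per1 upstream start, chr11:69098699-69098998, plus strand: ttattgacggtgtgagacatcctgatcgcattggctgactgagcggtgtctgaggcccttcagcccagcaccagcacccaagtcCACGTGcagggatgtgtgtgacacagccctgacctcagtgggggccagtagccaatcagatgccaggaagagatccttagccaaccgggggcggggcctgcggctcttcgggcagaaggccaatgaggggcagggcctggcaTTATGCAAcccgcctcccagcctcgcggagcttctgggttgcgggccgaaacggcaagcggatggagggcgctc
Per1 downstream start, chr11:69099902-69100201, plus strand: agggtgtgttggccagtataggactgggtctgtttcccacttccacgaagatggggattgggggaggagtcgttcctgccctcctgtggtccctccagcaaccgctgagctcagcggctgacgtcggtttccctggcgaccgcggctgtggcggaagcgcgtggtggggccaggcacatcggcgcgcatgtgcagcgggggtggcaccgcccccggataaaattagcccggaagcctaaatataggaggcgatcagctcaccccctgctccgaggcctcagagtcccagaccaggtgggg
Nr1d1, chr11:98775328-98775627, minus strand: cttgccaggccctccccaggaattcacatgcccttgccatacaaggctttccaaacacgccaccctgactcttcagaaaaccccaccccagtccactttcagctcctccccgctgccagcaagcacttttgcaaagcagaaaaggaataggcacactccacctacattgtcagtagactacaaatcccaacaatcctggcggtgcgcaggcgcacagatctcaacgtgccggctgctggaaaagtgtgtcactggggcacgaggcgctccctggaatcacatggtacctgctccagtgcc
Cry2, chr2:92434020-92434319, minus strand: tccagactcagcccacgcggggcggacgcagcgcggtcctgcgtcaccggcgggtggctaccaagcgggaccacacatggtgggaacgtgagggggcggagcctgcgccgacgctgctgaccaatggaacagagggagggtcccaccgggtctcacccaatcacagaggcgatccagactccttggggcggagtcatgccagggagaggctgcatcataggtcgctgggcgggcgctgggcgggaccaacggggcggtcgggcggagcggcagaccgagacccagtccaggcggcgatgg
The upstream Per1 window held 1 E-box and 1 D-box, and the other 4 windows held neither of these exact letters. No match says only that the letters are not in the window. Over the 340 promoter windows that lay wholly inside dense peaks, the E-box was found in 9.12% against 7.84% of all 21238 windows, the D-box in 2.35% against 3.09%, the AP-1 motif TGANTCA in 6.47% against 6.99%, the CRE motif TGACGTCA in 4.12% against 2.24%, and CCAAT in 41.2% against 38.2%. The member windows were also richer in G and C, with a median of 64.0% against 56.3%, and held a median of 22 CpG pairs against 13. The 21238 windows were not limited to those inside peaks. Being open and being crowded therefore cannot be told apart in these differences.

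Dense peaks were narrow and mostly intragenic. Their median width was 436 bp, against 546 bp over all peaks. Their median signal, the authors' depth-scaled read number per peak, was 4.62 against 4.60, so that per kilobase it was 11.2 against 8.96. Inside a gene lay 65.6% of them, compared with 47.3% of all peaks and 28.5% of the 11907 isolated peaks that had no other start within 20 kb. Outside genes the order was the opposite, at 21.8%, 40.0% and 62.0%. Within 1 kb of a coding gene start in the promoter table lay 9.33% of dense peaks and 10.0% of all peaks, which include wider ones. Under the same width limit, 7.74% of isolated peaks and 8.92% of peaks with 1 to 7 neighbours lay there. This share thus rose slightly with crowding. At the edge of the rule, the 5733 peaks with 7 neighbours had a median width of 475 bp, 63.6% inside genes and 1.55% called at T30, and the 3624 peaks with 8 had 449 bp, 62.9% and 1.38%.

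Joined wherever consecutive starts lay within 20 kb, the dense peaks formed 1325 clusters with a median of 4 peaks and a median span of 14.8 kb. The 266 clusters of 10 or more peaks held 3839 of them. By number of peaks the largest lay in Klhl29 (43 peaks, chr12:5119506-5257559), between Klf14 and Mkln1 (42 peaks, all outside genes, chr6:31041588-31206387), in Khdrbs3, which encodes an RNA-binding protein (41 peaks, chr15:68928801-69090943), and around Nfix, which encodes a transcription factor of neural development (39 peaks, chr8:84682409-84832731). Then came clusters in Celf4, which encodes a neuronal RNA-binding protein (36 peaks over 168.5 kb, the longest span), in Mbp, which encodes myelin basic protein (32), at Zeb2, which encodes a transcription factor of neurons and glia (31, chr2:45017436-45113513), and in Rbfox3, which encodes the neuronal protein NeuN (30, chr11:118820333-118911584). Chromosome 15 had the highest share of its peaks in the set, 9.02%, and chromosome 16 the lowest, 3.17%.

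Total reads in peaks ranged from 2.21 M to 11.9 M per library, with a median of 4.09 M. Dense peaks took 4.63% to 5.88% of the summed signal of a library (median 5.12%), and isolated peaks 7.15% to 9.46%, moving in the opposite direction. The ZT6 libraries, the controls for T30, ranged from 5.11% to 5.66% in dense peaks and the T30 libraries from 4.86% to 5.24%, so these groups overlapped. The highest ZT6 value belonged to the library T6N4, the shallowest of all. The share of signal differed among libraries of the same group, and its part in the results below was not tested other than by a fit with a library term. All 12 genes of each of the 6 cell type marker lists had RNA values, and median log2 levels were 6.06 for excitatory neurons, 5.95 for inhibitory neurons, 6.51 for astrocytes, 5.44 for oligodendrocytes, 5.00 for microglia and 4.29 for endothelial and mural cells.

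**Figure D1:**
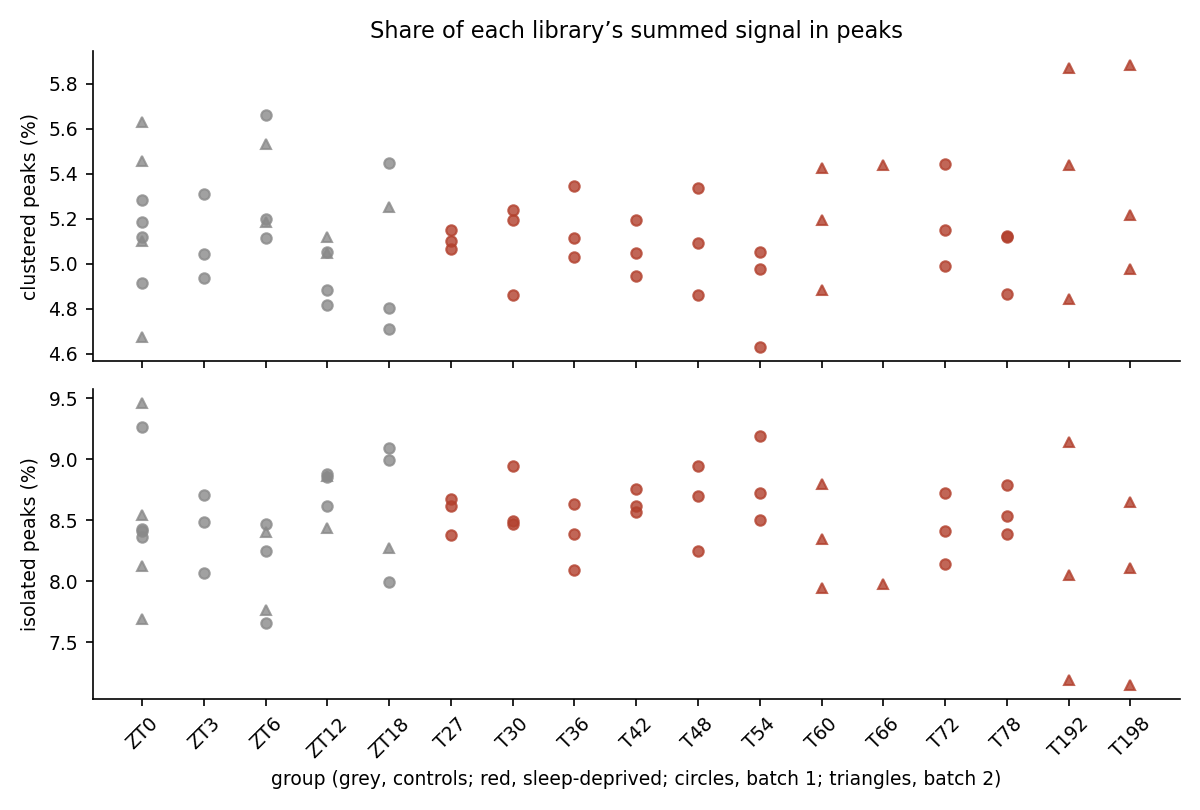
Percent of the summed peak signal of each library (y axes) that fell in dense peaks and in isolated peaks, by group (x axis), with circles for batch 1 and triangles for batch 2. Dense peaks held 4.63% to 5.88% and isolated peaks 7.15% to 9.46%, and most groups overlap.

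Few dense peaks changed with sleep deprivation, and a smaller share of them did so than of all peaks. A peak was called changed when limma's adjusted p, over all 130727 peaks, was below 0.05. After 3 h of deprivation (T27 against ZT3) 28 dense peaks were called, 24 higher and 4 lower, which is 0.356% of them against 0.689% of all peaks (0.658% higher and 0.0314% lower). After 6 h (T30 against ZT6) 97 were called, 56 higher and 41 lower, or 1.23% against 2.6% of all peaks (2.18% higher and 0.427% lower). At T36 against ZT12, 21 were called, 10 higher and 11 lower, or 0.267% against 0.618% (0.261% higher and 0.357% lower). With edgeR on the recovered whole reads the shares were 0.471% of dense peaks against 1.11% of all at T27, 0.929% against 2% at T30 and 0.0891% against 0.275% at T36. The median log2 change was -0.07 over dense peaks and -0.02 over all peaks at T30, -0.03 and -0.01 at T27, and 0.05 and 0.00 at T36. In all, 140 dense peaks were called in at least 1 deprivation comparison, and 7654 (97.4%) were called in none of the comparisons run, time of day included.

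These counts rested on few libraries. At T27, leaving out 1 library gave 10 calls (without the ZT3 library T3N2), 3 (T3N4), 18 (T27S2), 1 (T27S3) and 0 (T27S5), and 23 without T3N3. At T30 the count fell to 28 without the ZT6 library T6N4, to 32 without T30S1 and to 33 without T30S4, and stayed between 79 and 107 without any of the other 5. At T36 it fell to 5 without T12N1, 13 without T12N2, 7 without T12N4, 5 without T36S1 and 3 without T36S2. The share of dense peaks called stayed below the share of isolated peaks called in each of the 16 fits at T27, 18 at T30 and 18 at T36, which comprise the fit described, the leave-one-out fits and 9 other settings.

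At later times 0 dense peaks were called with limma, at T42, T48, T54, T60, T66, T72, T78, T192 and T198. Over all peaks 2 were called at T48 (0.00153%) and 0 at the other 8 times. Unadjusted p below 0.05 was reached by 360 dense peaks at T42, 403 at T48, 596 at T54, 139 at T60, 112 at T66, 382 at T72, 428 at T78, 241 at T192 and 594 at T198. In this order these were 4.58%, 5.13%, 7.58%, 1.77%, 1.42%, 4.86%, 5.45%, 3.07% and 7.56% of dense peaks. The shares of all peaks were similar, at 4.23%, 5.43%, 8.49%, 2.14%, 1.35%, 4.90%, 5.87%, 3.24% and 6.67%. edgeR also called 0 at each of these times. Leaving out 1 library gave 1 call at T48 (without T48S4) and 3 at T198 (without J76S1). T66 had 1 library and was assumed to vary like the other groups.

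**Figure D2:**
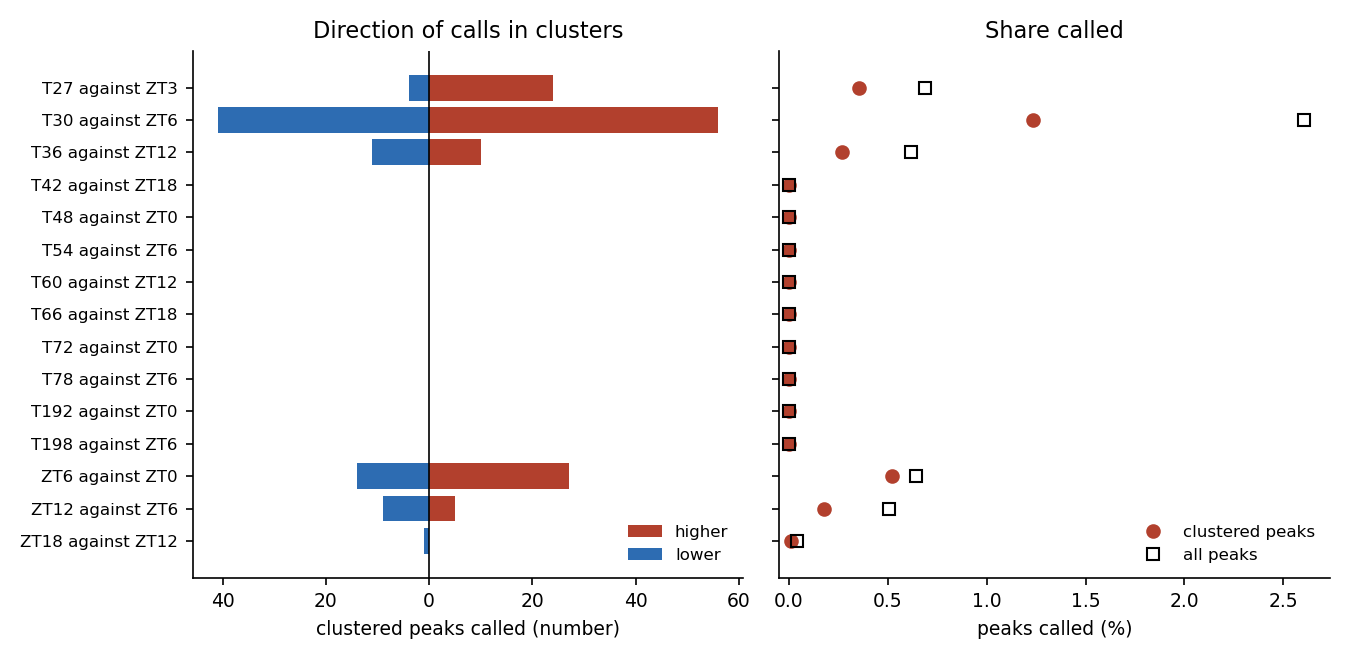
Left, number of dense peaks called higher or lower in each comparison (bars). Right, percent of dense peaks called (red dots) beside percent of all 130727 peaks called (open squares). T30 against ZT6 had the most, 97, at 1.23% against 2.6%.

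The share of peaks called fell with crowding, step by step up to 8 to 10 neighbours at T27, T30 and T36 and beyond that at T30 only. At T30 it was 4.25% for isolated peaks, 3.23% with 1 to 2 neighbours, 2.40% with 3 to 4, 1.78% with 5 to 7, 1.26% with 8 to 10 and 1.07% with 11 or more. At T27 the same bins gave 1.23%, 0.844%, 0.615%, 0.496%, 0.356% and 0.356%, and at T36 they gave 1.01%, 0.776%, 0.570%, 0.434%, 0.252% and 0.356%. From 0 to 8 to 10 neighbours the share fell at every step in all 16 fits at T27, 18 at T30 and 18 at T36. These 3 comparisons share no library. In the time of day comparison ZT6 against ZT0 the fall was not stepwise in any of 23 fits, with 1.14%, 0.798%, 0.543%, 0.371%, 0.549% and 0.356%. From ZT6 to ZT12 in undisturbed mice the bins gave 1.04%, 0.713%, 0.367%, 0.268%, 0.163% and 0.267%. The test over the 5 control times gave 2.45%, 1.64%, 1.22%, 1.00%, 0.891% and 1.07%. Both fell at every step up to 8 to 10 neighbours, so the fall was not particular to deprivation. The size of the changes narrowed as well: the SD over peaks of the log2 change at T30 was 0.39 for isolated peaks and 0.31 with 11 or more neighbours. From ZT0 to ZT6 in undisturbed mice the same SDs were 0.26 and 0.23. No test was made of the difference between shares, because neighbouring peaks are not independent.

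**Figure D3:**
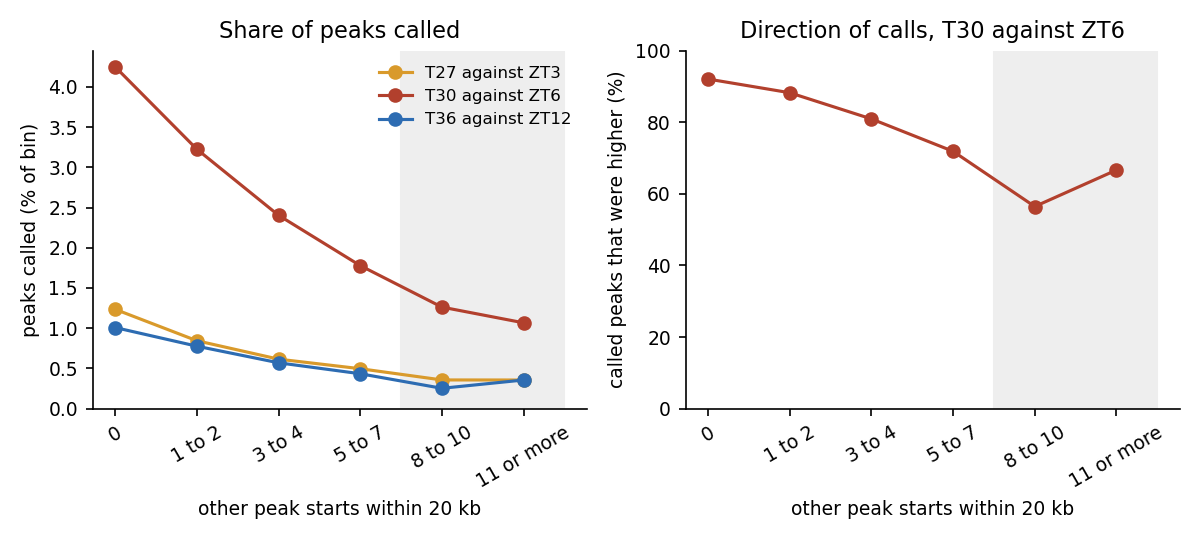
Left, percent of peaks called (y axis) by number of other peak starts within 20 kb (x axis) at T27, T30 and T36, with the bins of dense peaks shaded grey. Right, percent of the T30 calls that were higher in deprived mice, by the same bins. The share called at T30 falls from 4.25% to 1.07%.

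Within most kinds of peak compared, dense peaks were called less often than isolated ones at T27, T30 and T36, with exceptions at gene starts and among the narrowest peaks. At T30, outside genes, 0.876% of dense peaks were called, against 3.51% of peaks with 1 to 7 neighbours and 4.97% of isolated peaks. Inside genes the values were 1.47%, 2.25% and 3.77%, and at gene starts 0.546%, 0.550% and 0.868%. By quartile of signal, dense peaks were called less often than isolated ones in all 4, from 0.580% against 2.21% in the weakest to 1.79% against 6.29% in the strongest. Among peaks of up to 300 bp the order was the opposite, at 0.689% of 1742 dense and 0.649% of 616 isolated peaks. It was the opposite in these narrow peaks at T27 (0.172% against 0%) and T36 (0.115% against 0%) too, and at gene starts at T36 (0.273% against 0%).

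The direction of the T30 calls also went with crowding, but less firmly. Of the isolated peaks called, 92.1% were higher after deprivation, against 57.7% of the dense peaks called and 83.6% of all called peaks. With a term for the level of isolated peaks in each library, added after the data were seen, 132 dense peaks were called, 73.5% of them higher, against 78.3% of isolated peaks. edgeR called 73, of which 79.5% were higher, against 94.2% of isolated peaks. Without a batch term the value was 47.8% of 115. Without the ZT6 library T6N4 it was 75% of 28, without T30S1 75% of 32, without T30S4 36.4% of 33, and without T30S3 43.8% of 96.

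Of the 97 T30 calls, 7 held in each of the 8 leave-one-out fits and in each of the 9 other settings, and they were chosen for this after their values were seen. Each of the other T30 calls was lost in at least 1 leave-one-out fit. The call most secure by adjusted p lay outside genes, 52.2 kb from Cdh5, which encodes the cadherin of vascular endothelium (chr8:104048999-104049837). Its signal was 28.7, 23.6 and 29.6 in the T30 libraries and 14.6, 14.1, 12.7, 14.1 and 10.3 in the ZT6 libraries. The deprived libraries were all well above the controls, with a log2 change of 1.02 (SE 0.17, limma adjusted p = 6.7e-05). In undisturbed mice this peak had fallen from ZT0, where 8 libraries ranged from 18.4 to 26.5, to ZT6, by 0.72 on the log2 scale (SE 0.13, adjusted p = 0.0015), and the T30 libraries overlapped those of ZT0. That comparison uses the same ZT6 libraries. The T198 libraries (16.5 to 27.7) were also above every ZT6 library at this peak. At T36 the signal was 22, 23.1 and 18.1 against 11.4 to 16.3 at ZT12, without overlap, and the change of 0.55 had an adjusted p of 0.11. Cdh5 RNA at T30 had a log2 change of 0.07 (adjusted p = 0.46).

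In Hs3st1, which encodes an enzyme that adds sulfate to heparan sulfate chains, the peak at chr5:39623676-39624539 had 15.7, 16.4 and 13.1 at T30 and 10.6, 6.59, 5.76, 7.21 and 7.13 at ZT6. All T30 values exceeded all ZT6 values, and the log2 change was 1.12 (SE 0.22, adjusted p = 0.00085). The ZT0 libraries, at 6.54 to 14.1, overlapped those of T30. Hs3st1 RNA fell by 0.32 (SE 0.12, adjusted p = 0.044) in the same comparison, so peak and RNA moved in opposite directions. A peak inside Celf4 (chr18:25563237-25563717) had 9.86, 8.58 and 11.7 against 5.89, 6.59, 4.38, 4.99 and 2.23, a log2 change of 1.21 (SE 0.25, adjusted p = 0.0013). It too was above every ZT6 library, while Celf4 RNA had a log2 change of -0.05 (adjusted p = 0.53). ZT6 had the lowest mean of all groups at this Celf4 peak, and the ZT0 libraries (3.10 to 9.82) overlapped those of T30. The T198 libraries (6.71 to 10.8) were also above every ZT6 library.

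A peak 18.8 kb from Pdp1, which encodes a phosphatase that activates pyruvate dehydrogenase, rose together with the RNA of that gene (chr4:11984846-11985627). Its signal was 11, 10.2 and 12.6 at T30 against 5.74, 6.74, 5.53, 3.88 and 5.8 at ZT6, and 12.3, 14.8 and 13.8 at T27 against 6.34, 8.69 and 6.36 at ZT3. Neither pair of groups overlapped, while the ZT0 libraries (5.17 to 12.0) overlapped those of T30. The log2 change was 1.02 at T30 (SE 0.22, adjusted p = 0.0029) and 0.90 at T27 (SE 0.24, adjusted p = 0.048), where leaving out any library but T3N3 lost the call. Pdp1 RNA rose by 0.71 at T30 (SE 0.10, adjusted p = 1.9e-07).

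Inside Slain1, which encodes a protein of growing microtubule ends, a peak at chr14:103667130-103667555 had 8.99, 7.24 and 9.22 at T30 against 4.74, 2.4, 3.92, 4.71 and 4.01 at ZT6. The groups were apart, with a log2 change of 1.05 (SE 0.23, adjusted p = 0.0032). ZT6 had the lowest mean of all groups at this peak, and the ZT0 libraries (5.50 to 9.66) overlapped those of T30. The libraries of T54 (5.83 to 6.96) and T198 (5.30 to 8.55) were also above every ZT6 library. The only fall among the 7 was inside Grin2a, which encodes the NMDA receptor subunit GluN2A (chr16:9670721-9671297). Its signal was 3.48, 2.68 and 2.91 at T30 and 6.46, 5.69, 6, 4.44 and 8.47 at ZT6. The T30 libraries were below every ZT6 library but overlapped those of ZT0 (2.62 to 6.88). The log2 change at T30 against ZT6 was -0.99 (SE 0.23, adjusted p = 0.0064), while Grin2a RNA rose by 0.25 (SE 0.09, adjusted p = 0.025).

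The Asb15 peak, inside a gene for a protein of the ankyrin and SOCS box family (chr6:24539932-24540517), was the only dense peak called at T27, T30 and T36. At T27 its signal was 11.3, 11.9 and 10.5 against 5.33, 7.49 and 3.67 at ZT3, and at T30 it was 11.3, 9.92 and 8.01 against 3.73, 5.09, 5.07, 4.99 and 3.57 at ZT6. At T36 it was 4.45, 3.71 and 4.59 against 6.91, 7.4, 10.2, 7.98 and 8.8 at ZT12. The deprived libraries were above the controls at the first 2 times and below them at the third, without overlap in any. The log2 change was 1.02 at T27 (SE 0.24, adjusted p = 0.019), 1.05 at T30 (SE 0.22, adjusted p = 0.0021) and -0.87 at T36 (SE 0.22, adjusted p = 0.039). The T30 call held in every fit. The T27 call was lost without T3N2, T3N4, T27S2, T27S3 or T27S5, and the T36 call without any library but T12N5. Controls moved on their own in the same hours, rising from ZT6 to ZT12 by 0.81 (SE 0.19, adjusted p = 0.019), a comparison that shares its libraries with those of T30 and T36.

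Of the rises at T27, the largest was inside Trhr2, which encodes a receptor for thyrotropin-releasing hormone, with 4.23, 3.75 and 4.68 against 0.507, 2.7 and 0.733 at ZT3 (log2 change 1.57, SE 0.42, adjusted p = 0.042). The other 7 with the largest rises, near Ccdc190, Snd1, Wdr95, Rabgap1l, Gstm6, Lrrc8a and Dot1l, had log2 changes of 1.18 to 1.46. All 4 falls are named here. Adora1, the gene of the adenosine A1 receptor, held a peak with 0.706, 1.46 and 1.4 against 4.56, 2.7 and 3.67 (log2 change -1.30, SE 0.34, adjusted p = 0.040). Peaks in Camk2g and Tspan14 had log2 changes of -1.16 and -1.14. The strongest site, 38.0 kb from Ndufa9, a gene for a subunit of respiratory complex I, had 16.2, 19.6 and 20.1 against 32.5, 29.4 and 31.3 (log2 change -0.73, SE 0.17, adjusted p = 0.016). In all 28 the deprived and control libraries were apart, as in 98.8% of the calls over all peaks. Calls without overlap were thus 0.356% of dense peaks, against 0.681% of all peaks. None of these 28 calls held in every leave-one-out fit.

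At T30, beside the peaks above, the largest rises without overlap lay near Mkln1 (log2 change 1.31), Pdgfc, which encodes a growth factor (1.29), Dapl1 (1.17), Uck2, which encodes a nucleoside kinase (1.15), and Smarca2, which encodes a chromatin remodelling ATPase (1.08). The Pdgfc peak had 7.54, 4.56 and 5.58 at T30 and 2.58, 1.95, 4.15, 1.66 and 0.892 at ZT6. The largest falls without overlap included those near Chmp6, Dclk1, Gnai2, Tenm4, Zfr2, Dctn3 and Bzw2, with log2 changes of -1.31 to -1.06. At the Gnai2 peak, in the gene of an inhibitory G protein subunit, the signal was 0.87, 2.41 and 1.7 against 2.87, 4.19, 3.69, 3.6 and 4.9. The 97 sizes ranged from 0.52 to 1.31 with a median of 0.90, and 73 of the 97 (75.3%) had no overlap between libraries, against 86.3% of the calls over all peaks. Calls without overlap were 0.929% of dense peaks, against 2.25% of all peaks. Of the 97, 76 lay inside genes, 15 outside, 4 at gene starts and 2 at gene ends of unlisted strand.

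At T36, 18 of the 21 calls (85.7%) had no overlap between libraries, against 87.7% of the calls over all peaks. Calls without overlap were 0.229% of dense peaks, against 0.542% of all peaks. Among them the 7 rises lay near Jam3 (log2 change 1.49), Sox9, which encodes a transcription factor of astrocytes (1.28), Etv5, which encodes an ETS factor (1.21), Itga5, which encodes an integrin chain (1.15), Tmem37 (0.99), Kcnma1, which encodes the BK potassium channel (0.99), and Rap1gap2 (0.84). The Itga5 peak had 7.51, 8.55 and 7.47 against 3.04, 4.04, 3.74, 2.73 and 1.81 at ZT12 (SE 0.23, adjusted p = 0.0077), with a clear gap between the groups. The 8 largest falls lay near Ccl28 (log2 change -1.30), Foxk1, which encodes a forkhead factor (-1.04), Cdh6 (-1.03), Ank, Asb15, Vxn, Schip1 and Mapre2 (-0.93 to -0.79). Schip1, for example, held a peak with 7.24, 7.41 and 8.33 against 13.3, 10.8, 14.2, 14.7 and 16.8. Every T36 library was below every ZT12 library there. None of the 21 T36 calls held in every leave-one-out fit.

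Peaks called after 3 h of deprivation had the same sign after 6 h, and the median change of those called at 6 h was near 0 at T42. The libraries of T27, ZT3, T30 and ZT6 are all different. All 28 peaks called at T27 had the same sign at T30, against 62.4% of all dense peaks and 97.4% of all 901 peaks called at T27. Only 4 dense peaks were called at both times, which is 14.3% of the T27 calls and 4.12% of the T30 calls. The 56 peaks higher at T30 had a median log2 change of 0.52 at T27, 0.30 at T36 and 0.07 at T42. Of the 56, 44 had the same sign at T36, against 2142 of the 2847 among all peaks that were called higher at T30. The 41 peaks lower at T30 had medians of -0.14, 0.01 and 0.02. Of the 41, 19 had the same sign at T36, against 317 of the 558 among all peaks that were called lower at T30. The change at T36 differed from that at T30 in 11 dense peaks (0.140%, against 0.352% of all peaks), among them Asb15 (difference -1.92, SE 0.31, adjusted p = 0.00053), Chmp6 (1.75, SE 0.42, adjusted p = 0.031), Cdh6 (-1.41, SE 0.34, adjusted p = 0.034) and Cry2 (1.47, SE 0.37, adjusted p = 0.046). Between T30 and T27 the change differed in 0 dense peaks with limma and in 0 of all peaks (0%). An unadjusted p below 0.05 was reached by 338 of the 7860 dense peaks, and edgeR was not run on this difference.

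Few called peaks shared a cluster. With 1.23% of dense peaks called at T30 and a median of 4 peaks per cluster, few would do so in any case. The 97 T30 calls lay in 89 clusters, of which 83 had 1 called peak, 4 had 2 and 2 had 3. Those of T27 and T36 lay in 28 and 21 clusters with 1 each. Of the 266 clusters with 10 or more peaks, 206 had no call in any deprivation comparison. Only 140 of all 7860 dense peaks were called in such a comparison, so this count does not set the large clusters apart. The 8 largest clusters, of 30 to 43 peaks each, together had 5 T30 calls. Against 1.23% of dense peaks and 2.6% of all peaks called at T30, this count does not set these clusters apart. The median log2 changes over their peaks went from -0.20 (Nfix) to 0.12 (Khdrbs3).

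Tspan5, which encodes a tetraspanin membrane protein, held 1 of the 2 clusters with 3 T30 calls (27 peaks, chr3:138780733-138901407). The called peaks rose by 0.72 (SE 0.20, adjusted p = 0.031), 0.88 (SE 0.21, adjusted p = 0.0087) and 0.77 (SE 0.18, adjusted p = 0.0081), and the median over all 27 was 0.13. The last of them, at chr3:138900644-138901407, had 25.8, 20.6 and 31.8 at T30 against 19, 16.6, 11.5, 20.8 and 12.5 at ZT6, so the groups overlapped slightly. It was also called at T36, with 25, 20.8 and 19.2 against 10.5, 12.8, 12.7, 19.3 and 11.6 (log2 change 0.77, SE 0.18, adjusted p = 0.025). At T30 this call was lost without T30S4 only (adjusted p = 0.136), the second without T6N4 or T30S4, and the first without T6N2, T6N4, T30S1 or T30S4.

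Ildr2, which encodes an immunoglobulin-like receptor, held the other such cluster (19 peaks, chr1:166260486-166331394, median 0.14). Its called peaks rose by 1.21 (SE 0.29, adjusted p = 0.0092), 0.60 (SE 0.18, adjusted p = 0.044) and 0.67 (SE 0.17, adjusted p = 0.015). At the peak that rose by 0.67 the signal was 23.2, 15.6 and 22.8 against 13.5, 11.1, 13.6, 12.5 and 10.7, without overlap. At the one that rose by 1.21 it was 5.22, 6.17 and 10.2 against 3.02, 5.69, 1.84, 1.66 and 4.9, with overlap. Leaving out T30S4 lost all 3 of these calls, T30S1 or T6N4 the last 2, and J76N1, T6N3 or T30S3 the one that rose by 0.60, whose highest adjusted p was 0.194. The small Hs3st1 cluster (8 peaks, chr5:39620636-39643660) had 2 calls at T30 and the highest median of the 13 named clusters, 0.35. The cluster around Ppp1r1b, Stard3 and Neurod2 (15 peaks, chr11:98329457-98372710, median -0.13) had 2 falls, of 0.86 at the start of Gm33099 (SE 0.25, adjusted p = 0.040) and 0.90 in Ppp1r1b, which encodes the dopamine-regulated protein DARPP-32 (SE 0.26, adjusted p = 0.039). Neither fall was called by edgeR, and each was lost in 6 of 8 leave-one-out fits: the first held only without J76N1 or T6N3 and the second only without J76N1 or J76N2.

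**Figure D4:**
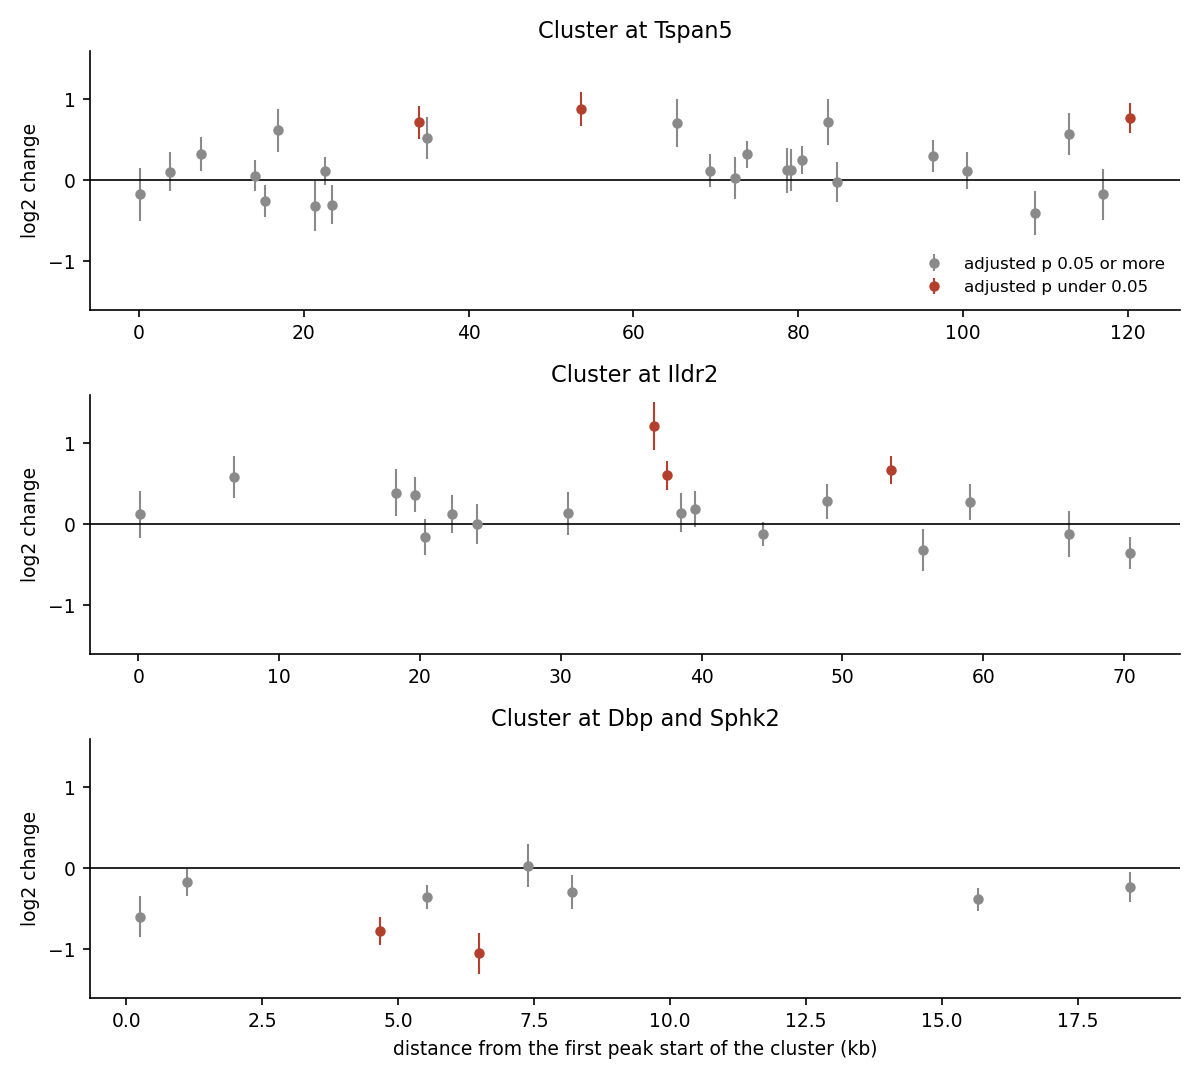
Log2 change of each dense peak at T30 against ZT6 (y axis, with its SE) in the Tspan5, Ildr2 and Dbp clusters. The x axis is the distance of its midpoint from the first peak start of the cluster (kb). Red points had an adjusted p below 0.05, which were 3 of 27, 3 of 19 and 2 of 9 peaks.

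The Dbp cluster (9 peaks over 18.8 kb, chr7:45699586-45718359, holding the starts of Car11, Dbp, Sphk2 and Rpl18) changed in both directions, up from ZT0 to ZT6 in undisturbed mice and down from ZT6 to T30. These comparisons share the ZT6 libraries, so their values are set side by side only. Inside Dbp, at chr7:45705981-45706185, the signal was 7.47, 8.83, 9.22, 8.04 and 7.58 at ZT6, 1.28 to 5.86 (median 4.11) over the 8 ZT0 libraries, and 2.9, 4.29 and 4.61 at T30. ZT6 stood above both other groups without overlap. The log2 change was 1.06 from ZT0 to ZT6 (SE 0.19, adjusted p = 0.0014) and -1.05 at T30 against ZT6 (SE 0.25, adjusted p = 0.0081).

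A peak just upstream of the Dbp promoter, chr7:45704007-45704508, had 18.8, 20.8, 18.4, 23.8 and 22.7 at ZT6 and 13.3, 13.1 and 9.95 at T30, and 9.39 to 16 at ZT0. Again ZT6 was above both, with log2 changes of 0.71 from ZT0 to ZT6 (SE 0.13, adjusted p = 0.0020) and -0.77 at T30 (SE 0.17, adjusted p = 0.0037). The peak that holds the Dbp promoter printed above had changes of 0.28 (adjusted p = 0.23) and -0.35 (adjusted p = 0.22), and the Sphk2 peak rose by 0.40 (adjusted p = 0.047) and had -0.39 at T30 (adjusted p = 0.12). Summed over the 9 peaks, the signal was 138 to 165 at ZT6 and 100 to 124 at T30, with no overlap, and 96.9 to 129 at ZT0. Dbp RNA rose by 1.17 from ZT0 to ZT6 (SE 0.10, adjusted p = 2.3e-12) and fell by 0.96 at T30 (SE 0.13, adjusted p = 7.0e-08). The T30 call inside Dbp was lost without the library T30S1 (adjusted p = 0.125) and the upstream one without T30S4 (adjusted p = 0.0857), and both held in the other 7 leave-one-out fits. From ZT0 to ZT6 both calls held in all 13, and the one inside Dbp was lost with batch 1 libraries only.

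**Figure D5:**
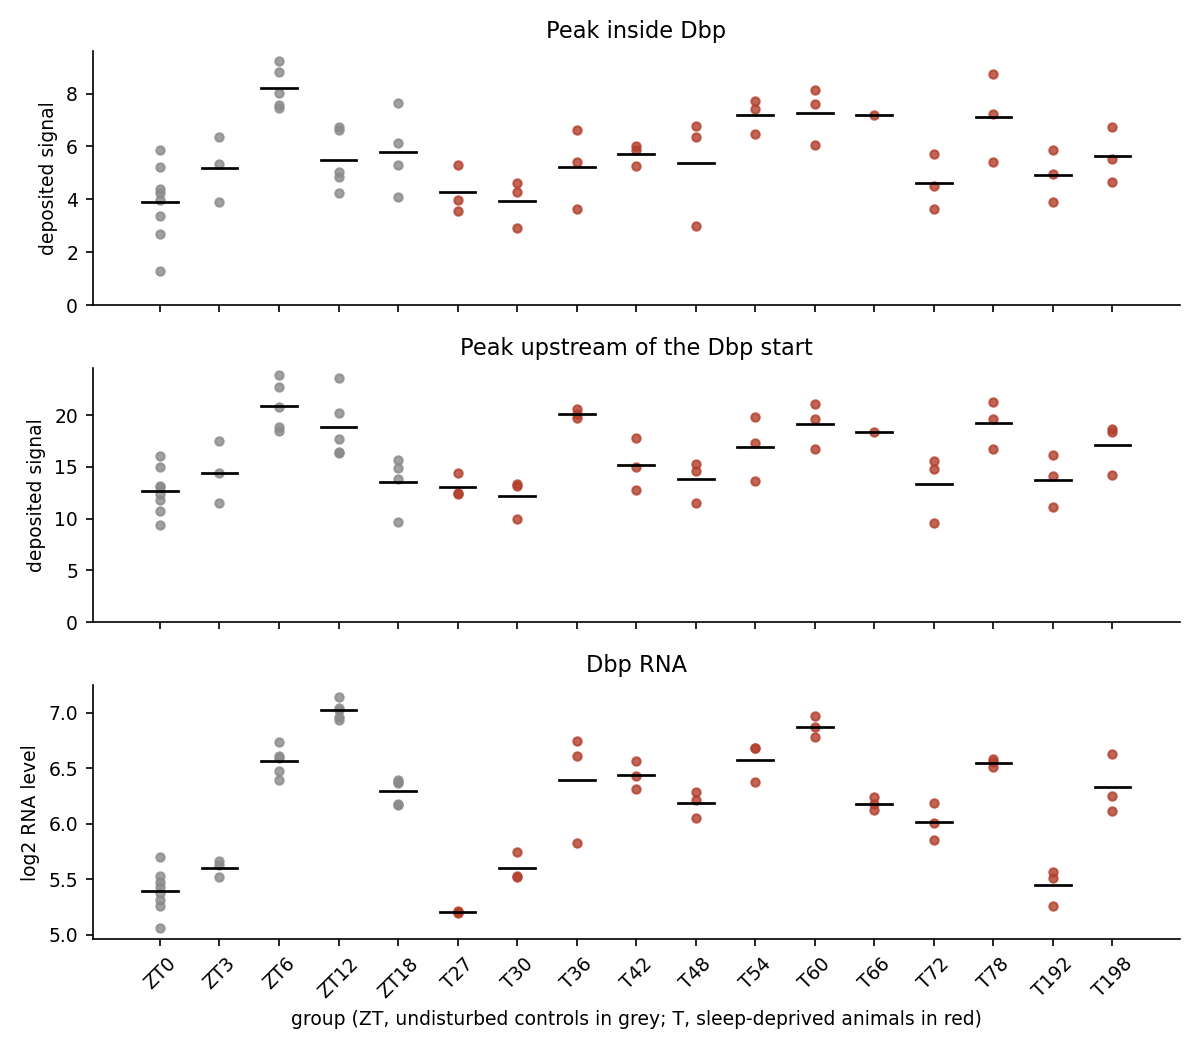
Signal of the peak inside Dbp, signal of the peak upstream of the Dbp start, and Dbp RNA (log2 level) in every library or animal (points) by group (x axis), controls in grey and deprived in red, with bars at group means. ZT6 controls stand at 7.47 to 9.22 in the Dbp peak and T30 libraries at 2.9 to 4.61.

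Across the hours of the day in undisturbed mice few dense peaks changed, and a smaller share of them did so than of all peaks. The test over the 5 control times called 72 dense peaks (0.916%, against 1.39% of all peaks), and edgeR called 0.662% against 1.13%. From ZT0 to ZT6, 41 were called (0.522%, against 0.64%), and 27 of these (65.9%) rose and 14 fell, while of all peaks 0.118% rose and 0.522% fell. edgeR called 0.394% of dense peaks in this comparison, against 0.362% of all peaks, so the order was the opposite there. The rising share was 50% of 40 with the library term, 54.8% of 31 with edgeR and 45% of 20 with the replicate number as a block. The count was 7 without the ZT6 library T6N4, 25 without J76N2 and 27 without either of the ZT0 libraries T0N1 and T0N9. From ZT6 to ZT12, 14 were called, 5 higher and 9 lower (0.178%, against 0.504% of all peaks, 0.437% higher and 0.0673% lower). edgeR called 0.0763% of dense peaks there, against 0.262%, and 0.0254% against 0.075% from ZT12 to ZT18. The count from ZT6 to ZT12 was 0 without T6N4, between 3 and 8 without J76N2, T12N1, T12N2, T12N4, T12N6 or T6N3, and 33 and 28 without J76N1 and T6N2. From ZT12 to ZT18, 1 was called (0.0127%, against 0.0405%), and 5 without T18N3. The time of day count was 42 without T12N1 or T12N4, 45 without T12N6 and 46 without T6N4. Calls that held in every leave-one-out fit were 15 of the 72 over time of day, 5 of the 41 from ZT0 to ZT6, 0 of the 14 from ZT6 to ZT12, and the 1 from ZT12 to ZT18, which was lost with batch 1 libraries only. The controls collected at ZT0 on the next morning differed from the first ZT0 controls in 0 dense peaks with limma (0% of all peaks). An unadjusted p below 0.05 was reached by 552 of the 7860 dense peaks, and edgeR was not run on this difference.

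The 1 call from ZT12 to ZT18 lay 10.6 kb from Vwa5b1 (chr4:138553350-138553993). It had 3.32, 5.04, 4.41 and 3.82 at ZT18 and 13.3, 8.41, 9.22, 10.3 and 9.57 at ZT12, a log2 change of -1.22 (SE 0.22, adjusted p = 0.0044). ZT12 also stood above the ZT0, ZT3 and ZT6 libraries, which ranged from 3.05 to 7.38. Rises from ZT0 to ZT6 included Plekha6 (chr1:133237651-133238028), with 5.17, 6.59, 6, 6.93 and 9.36 at ZT6 against 2.07 to 4.67 (log2 change 0.98, SE 0.18, adjusted p = 0.0024), and Tmem178b (0.98). Falls included Klhl29 (-0.81), the Slain1 peak described at T30 (-0.77), with the same ZT6 libraries, and Hivep2 (-0.75). Among the 9 calls from ZT6 to ZT12 without overlap the widest changes beside Asb15 were rises near Zfr (0.80) and in Cables1 (0.65) and falls in Cpvl (-1.07), Nav1 (-1.01) and Rnf165 (-0.85). Cables1 held a strong site, with 29, 24.9, 29.4, 27.9 and 26.1 at ZT12 against 20.7, 21, 18.7, 16.1 and 12 at ZT6. Over the 5 times the widest ranges of group means on the log2 scale were near Ccl28 (1.49), Aldh8a1 (1.24), Ttc7b (1.22), Vwa5b1 (1.19), Atp2b2 (1.18), Thra (1.17), Capzb (1.15) and Dbp (1.08). Near Ccl28, which encodes a chemokine, ZT12 libraries had 4.4 to 8.08 and no library of the other 4 times passed 3.69.

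Several clock genes lie among the dense peaks. Of 23 clock genes listed, 7 were the nearest gene of dense peaks, among them Arntl (10), Npas2 (10), Cry2 (10), Per1 (7), Nr1d1 (6) and Dbp (4). Of these 48 peaks, 2 (4.17%) were called at T30, against 1.23% of all dense peaks and 2.6% of all peaks. From ZT0 to ZT6 it was also 2 (4.17%), against 0.522% and 0.64%, and over time of day 3 (6.25%), against 0.916% and 1.39%. These shares rest on 2 or 3 calls and were not tested. The median log2 change of the 48 at T30 was -0.17. The upstream peak of Dbp is not among them, since Car11 lies nearer by span. An Nr1d1 start site peak (chr11:98773670-98774384) rose from ZT0 to ZT6 by 0.47 (SE 0.11, adjusted p = 0.021), with 27.4, 29, 33.4, 27.7 and 36.6 at ZT6 against 17.9 to 28.9, and Nr1d1 RNA rose by 0.95. The call was lost without the ZT6 libraries J76N2 or T6N4 or the ZT0 library T0N5 (highest adjusted p = 0.163). A different peak holds the Nr1d1 promoter printed above, and it was not called. Its log2 change was 0.38 from ZT0 to ZT6 (adjusted p = 0.125) and -0.35 at T30 (adjusted p = 0.28). A Cry2 peak of 154 bp outside the gene fell at T30 by 0.93 (SE 0.27, adjusted p = 0.041), while the peak over the Cry2 promoter had -0.20 (adjusted p = 0.52). The Cry2 call was lost in 5 of 8 leave-one-out fits, without J76N2, T6N3, T6N4, T30S1 or T30S4 (highest adjusted p = 0.386), and edgeR did not call it.

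Per1 RNA rose with deprivation. Its cluster held 27 peaks (chr11:69040031-69125821), and 0 of them were called by limma or by edgeR in any comparison. An unadjusted limma p below 0.05 was reached by 1 of the 27 at T27, 5 (18.5%, against 12.5% of all dense peaks) at T30 and 0 at T36, and by at most 9 in any comparison (T198). With 1.23% of dense peaks called at T30, a count of 0 among 27 does not set the cluster apart. Over the Per1 promoters printed above, the upstream peak had 9.28, 10.7 and 7.28 at T30 against 8.18, 8.98, 10.1, 8.59 and 14.7 at ZT6, and the downstream peak had 13.9, 12.9 and 12.1 against 11.9, 16.5, 17.5, 12.2 and 20.1. Both pairs of groups overlapped, with log2 changes of -0.16 (adjusted p = 0.78) and -0.19 (adjusted p = 0.70). Per1 RNA was 6.14, 5.87 and 6.16 at T30 against 5.10, 4.62, 4.81, 5.73 and 4.93 at ZT6 on the log2 scale, a rise of 1.03 (SE 0.22, adjusted p = 0.00027), and it rose by 0.89 at T27 (SE 0.24, adjusted p = 0.0070).

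The counts for gene lists are small and are to be read against the shares of all dense peaks called, 0.356% at T27, 1.23% at T30 and 0.267% at T36, from which a count of 0 in such lists does not stand apart. An unadjusted p below 0.05 was reached by 8.40%, 12.5% and 10.1% of dense peaks at these times. Of all peaks it was reached by 11.1%, 15.1% and 12.3%. The unadjusted counts of the lists were not tested against these shares. The immediate early list had 38 dense peaks, near Ier5 (20), Arc (10), Bdnf (6), Fosb (1) and Jun (1). limma called 0 of the 38 at T27, T30 or T36, while 2, 3 and 6 had an unadjusted p below 0.05 and edgeR called 0, 1 and 0, and the median log2 change at T30 was 0.06. The feedback inhibitors of MAP kinase signalling had 14, with 0 called by either tool at these times and 1, 6 and 0 at an unadjusted p below 0.05.

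Of the transcription factor genes of cortical neurons, 14 had 176 dense peaks. limma called 0 of these at T27 and T30, where 15 and 19 had an unadjusted p below 0.05 and edgeR called 0, and at T36 it called 2 (1.14%), in Foxk1 and in Bcl11a (log2 change -0.70). Scaffold and cytoskeleton genes had 109, with 1 called at T30. Markers of excitatory neurons had 21, with 1 (4.76%) called at T30, in Camk2a, which edgeR did not call. Markers of inhibitory neurons had 13, with 0 called by either tool at T27, T30 or T36 and 0, 0 and 4 at an unadjusted p below 0.05. The astrocyte markers also had 13, with 1 called at T36, near Sox9, which edgeR did not call. For oligodendrocytes there were 32, all in Mbp, with 0 called by either tool at T27, T30 or T36 and 3, 5 and 2 at an unadjusted p below 0.05. A peak in Mbp fell from ZT0 to ZT6 by 0.72 (SE 0.18, adjusted p = 0.026), a call lost with batch 1 libraries only and without J76N1, J76N2, T6N2, T6N4 or T0N9 (highest adjusted p = 0.143). No dense peak had a microglial or a vascular marker as its nearest gene, out of 43 and 67 peaks near such genes.

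Genes that start in a dense cluster changed in RNA more often than genes in general, in contrast to the peaks. Of 516 such genes 443 had RNA values. At T30, 182 of them (41.1%) were called, 129 higher and 53 lower, against 31.6% of 13842 genes (16% higher and 15.6% lower). At T27, 104 (23.5%) were called, 80 of them higher and 24 lower, against 15.6% (8.21% higher and 7.37% lower). At T36 it was 68 (15.3%), 55 higher and 13 lower, against 11.9% (7.46% higher and 4.46% lower). From ZT0 to ZT6, 136 (30.7%) were called, 95 of them lower, against 22.7% (11.2% higher and 11.5% lower), and over time of day 233 (52.6%) against 40.7%. The T36 count was 43 without the T36 library T36S1. These genes were also more strongly expressed, at a median log2 level of 5.67 against 4.46. Within quartiles of level their share was above that of other genes in all 4 at T27 and T30, for example 36.7% against 30.2% at T30 in the highest, and in 3 of 4 at T36, where the third had 11.9% against 12.1%. No test was made of these differences.

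The largest RNA rises among them at T30 were in Tnfrsf25, which encodes a death-domain receptor (2.05, SE 0.27), Bdnf, the gene of brain-derived neurotrophic factor (1.15, SE 0.11), Dnajb5, which encodes a co-chaperone (1.09, SE 0.14), Midn (1.04, SE 0.18) and Per1. The largest falls were in Cirbp, which encodes a cold-inducible RNA-binding protein (-0.97, SE 0.08), Dbp, Trim7 (-0.77, SE 0.17), Plk5 (-0.59, SE 0.12) and Inca1 (-0.53, SE 0.10). At T36, Inhba, which encodes a subunit of activin (1.03, SE 0.16), and Bdnf (1.03, SE 0.11) were the highest, and Ap1g2 (-0.90, SE 0.14) the lowest. All of these passed the limma threshold. Bdnf had 6 dense peaks and Inhba 10, and none near Bdnf was called at T27, T30 or T36. With 1.23% of dense peaks called at T30, a count of 0 among 6 does not set the Bdnf peaks apart. Of 90 T30 calls whose nearest gene was measured, near 84 genes, 42 (46.7%) had RNA called as well, 27 in the same and 15 in the opposite direction. That share counts peaks, so some genes count more than once. By gene, 41.1% of those that start in a dense cluster were called, and 31.6% of all genes. Whether RNA was called or not, 49 of the 90 peaks had the same sign as the RNA.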

How the data were processed

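Per the submitters' processing notes, the tools were HTSeq 0.6.1, MACS2 2.1.1, bedtools 2.26.0, SAMtools, Bowtie2, sleuth 0.29.0, kallisto 0.43.0 and FastQC, and the builds mm10 and GRCm38, with no settings in the sources used here. The authors deposited ATAC-seq values as a depth-scaled signal per peak, in 1 peak set for all libraries. Its values were whole multiples of 1 step per library, which gave whole reads back for 100% of values (tolerance 0.02 of a read). The authors deposited RNA-seq values as log2 levels per gene, of a scale that the sources used here do not state.

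Dense peaks were found from the deposited peak positions. The nearest gene of a peak is the shortest RefSeq gene span (GRCm38.p6) that holds its midpoint, or else the nearest one, and it says nothing on which gene a peak acts. The signal was taken as log2(value + 0.5), which understates the change of weak peaks, and fitted for all 130727 peaks with limma 3.58.1 (R 4.3.3, intensity trend), with a mean per group and a term for the labelled batch (40 libraries in batch 1 and 19 in batch 2). P-values are two-sided and adjusted after Benjamini and Hochberg over all peaks, or over 13842 genes for RNA, with 62 columns. The repeat library of 1 ZT0 animal was left out. Each library is 1 animal, and n is its number of animals.

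Peaks named by rule were, among called peaks without overlap between the groups' libraries, the 8 largest rises and 8 largest falls at T27, T30 and T36, 3 each way in other comparisons, and the 8 widest ranges over time of day. Named clusters were the 8 with most peaks and the 5 with most T30 calls. Other peaks were named after their values were seen: the 7 T30 calls held in every fit, and those of the Dbp, Nr1d1, Cry2, Mbp, Tspan5 and Ildr2 clusters and the Pdp1 peak at T27. The dense peaks and the gene lists were chosen with earlier results of these data known.

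Alternatives were a pseudocount of 1 or 0.1, a mean signal of at least 2, quantile normalization, no batch term, batch 1 alone, the animal number as a replicate block, each library left out in turn, and edgeR 4.0.16 quasi-likelihood tests on the recovered reads. edgeR called 37 dense peaks of 1446 peaks at T27, 73 of 2610 at T30 and 7 of 359 at T36. A library term, the median deviation of isolated peaks, was added after the data were seen. Same-numbered animals of different groups did not deviate together (median correlation -0.002 over 299 pairs), so the numbers were not taken as pairs. Some peaks and genes that the rules name are not reported here. Scripts were tested on simulated data. Tables were handled with pandas 2.3.3 in Python 3.11.15.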

Additional observations from a re-analysis of the deposited data

Results flagged for a closer look

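Groups of 4 to 10 libraries were examined at the named peaks and for the share of signal in dense peaks. In 5 of these 86, all at named peaks, 1 library stood far from the rest of its group. Chance alone gives about 1 in 20. The peak in Hivep2, which encodes a zinc finger protein, had 12.4 in the ZT0 library J70N1 and 5.86 to 8.77 in the other 7. At the Slain1 peak the ZT0 library T0N5 had 9.66 and the others 5.50 to 7.36. At the Bzw2 peak the ZT6 library T6N4 had 7.13 and the other 4 had 3.30 to 4.16. At the Dclk1 peak the ZT6 library T6N2 was low, with 2.77 against 4.44 to 5.03. At the Dctn3 peak the ZT6 library T6N3 had 9.43 and the others 5.53 to 6.59.

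Between T30 and T36, comparisons that share no library, the change with deprivation differed by limma's test of the difference at 3 of the peaks named by rule. At the Asb15 peak the T36 change was lower than the T30 change by a difference of -1.92 (SE 0.31, adjusted p = 0.00053). At the Cdh6 peak the difference was -1.41 (SE 0.34, adjusted p = 0.034), and at the Chmp6 peak it was 1.75 (SE 0.42, adjusted p = 0.031).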

How the results depend on the processing

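Of 56 changes at named peaks 0 reversed in any setting, but the balance of higher and lower calls did turn. These peaks were named for having no overlap between the groups' libraries, so leaving out 1 library could hardly reverse them. It lost the call in 202 of 467 values. Calls at these 56 were lost in 23 with batch 1 libraries only, 17 with edgeR, 13 with the replicate block, 9 with quantile normalization, 8 with the library term, 5 without a batch term, 3 with a pseudocount of 0.1, 1 with a pseudocount of 1 and 0 with a mean signal of at least 2. The cause of these losses was not tested.

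Counts that moved by over 1.5 times were as follows. At T27 (28 calls) quantile normalization gave 16 and the library term 57. At T36 (21) edgeR gave 7. At T48 (0) a pseudocount of 0.1 gave 1, no batch term 1 and the library term 2, and at T198 (0) the library term gave 1. From ZT6 to ZT12 (14) the library term gave 1 and edgeR 6. From ZT12 to ZT18 (1) batch 1 only gave 0, the library term 5 and edgeR 2. Batch 1 only gave 20 from ZT0 to ZT6 (41) and 31 over time of day (72), with fewer libraries. The share of T36 calls that were higher was 47.6%, against 73.9% of 23 with batch 1 only and 44.4% of 27 with the library term. At T30 it was 57.7%, against 47.8% without a batch term and 36.4% without T30S4, and from ZT0 to ZT6 65.9%, against 45% with the block.

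With the animal number as a replicate block the counts were 12 at T27, 106 at T30, 30 at T36 (21 of them higher), 20 from ZT0 to ZT6 and 4 from ZT12 to ZT18. RNA counts with this block were 95, 175 and 73 at T27, T30 and T36, and 211 over time of day. The numbers do not pair these animals, so a lost call is no sign of a weaker effect.

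Leaving out 1 library gave 0 to 23 calls at T27, 28 to 107 at T30, 3 to 27 at T36, 0 to 1 at T48, 0 to 3 at T198, 7 to 57 from ZT0 to ZT6, 0 to 33 from ZT6 to ZT12, 1 to 5 from ZT12 to ZT18 and 42 to 85 over time of day. RNA counts were 70 to 90 at T27, 137 to 179 at T30, 43 to 71 at T36 and 205 to 239 over time of day. Batch 1 alone could not be compared at T60, T66, T192 and T198, and the single T66 library could not be left out. Weak peaks are limited by depth, since the step of 1 read is a large part of their signal.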

Other observations

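The second library of 1 ZT0 animal, used in no comparison, had 3.36 M reads in peaks against 3.58 M in the first. Over dense peaks their log2 signals correlated with r = 0.856, against a median of 0.827 with the libraries of the other ZT0 animals, and dense peaks held 5.29% and 5.18% of the signal.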
